A study of Mus musculus with 26 samples.

Results

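The replication-dependent histone genes were described in whole mouse embryos that lacked the ubiquitin ligase gene Traf7. The members were every protein-coding gene whose symbol began with Hist1h, Hist2h, Hist3h or Hist4h in both deposited expression tables, which gave 67 of 54532 genes. By type they comprised 6 linker histone H1 genes, 18 H2A genes, 18 H2B genes, 12 H3 genes and 13 H4 genes. The Hist1 cluster held 54 of them on chromosome 13 (21715763 to 23934851), the Hist2 cluster 10 on chromosome 3 (96219865 to 96270132), and the Hist3 cluster 2 on chromosome 11 (58948920 to 58956830). Hist4h4 was the single member on chromosome 6 (136801553 to 136804415). All positions are those of mm10 as the tables give them.

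RNA-seq had been performed on 26 C57BL/6 embryos of embryonic day 9.5, each freed of its yolk sac and sequenced as 1 library. Traf7GLOko embryos (GLOko, n = 6) carried a global deletion of Traf7 that had been made with E2a-Cre, a Cre driven by the adenovirus EIIa promoter in early embryonic cells, and were compared with Traf7WT embryos (WT, n = 6). Traf7ECko embryos (ECko, n = 7) carried Traf7 fl/fl and Tie2-Cre, which acts in endothelial and hematopoietic cells, and were compared with Traf7EChet embryos (EChet, n = 7), which carried Traf7 fl/+ and the same Cre. The floxed allele had loxP sites around exons 2 and 14 of Traf7. Nothing in the labels linked embryos to litters.

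Replication-dependent histone genes supply the histones that package newly copied DNA, and their mRNAs accumulate in S phase. These mRNAs are the best known animal mRNAs that end without a poly(A) tail. Their 3' end is a short stem-loop that is bound by the stem-loop binding protein Slbp and is cut with the help of the U7 small nuclear ribonucleoprotein. Several members, including Hist1h1c, Hist1h2bc and Hist2h2be, are also known to give polyadenylated mRNA in differentiated cells. Replication-independent variants such as H3f3b and H2afz come from genes outside these clusters, with ordinary polyadenylated mRNAs.

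The stem-loop is shown first because it defines the class. A 16-base hairpin was searched for in the 100 bases after the stop codon of each annotated transcript (GENCODE M21). It had 6 paired bases on each side of a 4-base loop, and the search required the loop to begin with TT. The hairpin was found in 44 of 67 members, 21 to 58 bases after the stop codon (median 31). The capitals mark the paired arms. The first form was found in 26 members, the second in 7, the third in 6 and the fourth in 2.
Hist1h1c: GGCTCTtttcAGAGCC
Hist1h4c: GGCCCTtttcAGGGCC
Hist1h1t: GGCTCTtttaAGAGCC
Hist1h4i: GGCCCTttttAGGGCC

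Of the 23 members without a hairpin, 15 had a transcript model that ended with the stop codon, so that the search window held no base. A further 2 had 1 to 30 bases after the stop codon, and 6 had over 30 bases. The members also resemble each other closely in their coding sequence. All 13 H4 genes encoded 1 protein from 12 different coding sequences. Hist1h4m and Hist1h4n had the same 312 coding bases, as Hist1h2ao and Hist1h2ap, Hist1h2bq and Hist1h2br, Hist2h2aa1 and Hist2h2aa2, and Hist2h3c1 and Hist2h3c2 had identical coding sequences of their own. The first 60 coding bases of the H4 genes that carry the comparisons are printed below, with capitals where Hist1h4j or Hist1h4c differs from Hist1h4i. Hist1h4j differed at 12 of these bases and at 20 of all 312, and Hist1h4c at 9 and at 19.
Hist1h4i: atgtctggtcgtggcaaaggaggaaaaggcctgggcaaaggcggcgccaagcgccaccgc
Hist1h4j: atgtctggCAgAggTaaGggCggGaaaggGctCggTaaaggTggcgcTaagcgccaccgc
Hist1h4c: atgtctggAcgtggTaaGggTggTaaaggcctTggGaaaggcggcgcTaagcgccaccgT

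Such differences decide whether a read can be assigned to 1 copy. In windows of 100 bases, 28 of 67 members shared at least 50% of their transcript with another gene, 6 shared every window and 6 shared none. Hist1h4j shared 19.0% of its windows, Hist1h4i 15.1% and Hist1h4c 14.0%, whereas Hist1h3h shared 92.0% and Hist1h4m 88.1%. Values of members that share most of their sequence are therefore uncertain. The sources used here do not say how reads that fit several genes had been counted.

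Histone mRNA was a small fraction of each library. Libraries held 16662293 to 25364652 fragments assigned to genes, of which 1201 to 3454 fell in the 67 members, or 65.2 to 178 per 1000000. Fragments are recovered from the deposited FPKM (fragments per kilobase of gene length and 1000000 fragments), which are whole multiples of 1 fragment in every library. The library sizes used in the FPKM were not proportional to the assigned fragments, and the sources used here do not say how they were set. Limits given for a count of 0 cover counting error only. Traf7 itself was at 11.1 to 20.6 FPKM in WT embryos (median 19.6) and at 1.75 to 3.12 in GLOko embryos (median 2.52), and these groups did not overlap. It was at 18.8 to 22.7 in EChet embryos and at 13.6 to 20.4 in ECko embryos.

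The levels of the members spread over a wide range. Hist1h4i, an H4 gene, was the highest with a mean of 20.7 FPKM over the 26 embryos, which was 16.9% of the summed mean level of all members. It was followed by the H2B gene Hist3h2ba (11.4), the H3 gene Hist1h3c (10.1), the H2A gene Hist1h2ao (6.59), the H3 gene Hist1h3h (5.14), the H2A gene Hist1h2ae (5.08) and the linker histone gene Hist1h1c (5.04). Together these 7 genes held 52.2% of the sum. The order of these means differed without GLOko 2. Without it Hist3h2ba had a mean of 8.87 FPKM, below Hist1h3c (10.1), and Hist1h1c had a mean of 4.13, below Hist1h2bj (4.22). Within the GLOko embryos the mean of Hist3h2ba (20.5) was above that of Hist1h4i (15.9). A further 19 members had a mean of 1 to 5 FPKM, 26 had a mean of 0.1 to 1, and 15 were under 0.1.

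Each type had 1 leading gene or a few. Among the H1 genes Hist1h1c was followed by Hist1h1e (1.29 FPKM) and Hist1h1b (0.648), and among the H4 genes Hist1h4i was followed by Hist1h4k (2.64) and Hist1h4n (1.20). Such orders depend on the annotated gene lengths by which FPKM are divided. In the 44 members with a hairpin, the transcript model ran 3 to 4884 bases past it (median 112.5). In WT 1, Hist1h1d had 29 fragments at 0.177 FPKM, whereas Hist1h1b had 16 at 0.974. The neighbours in the order of the H2A and H3 genes were closer, and Hist1h3h, Hist1h2ae and Hist1h1c ranged over each other in WT embryos (1.76 to 5.49, 3.56 to 10.9 and 2.85 to 5.80 FPKM). Hist1h4i stood above them in WT embryos, at 15.8 to 27.9 FPKM, and was at 12.2 FPKM or more in each of the 26 embryos. The plot of levels by type shows this order with every group in its own colour.

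**Figure D1:**
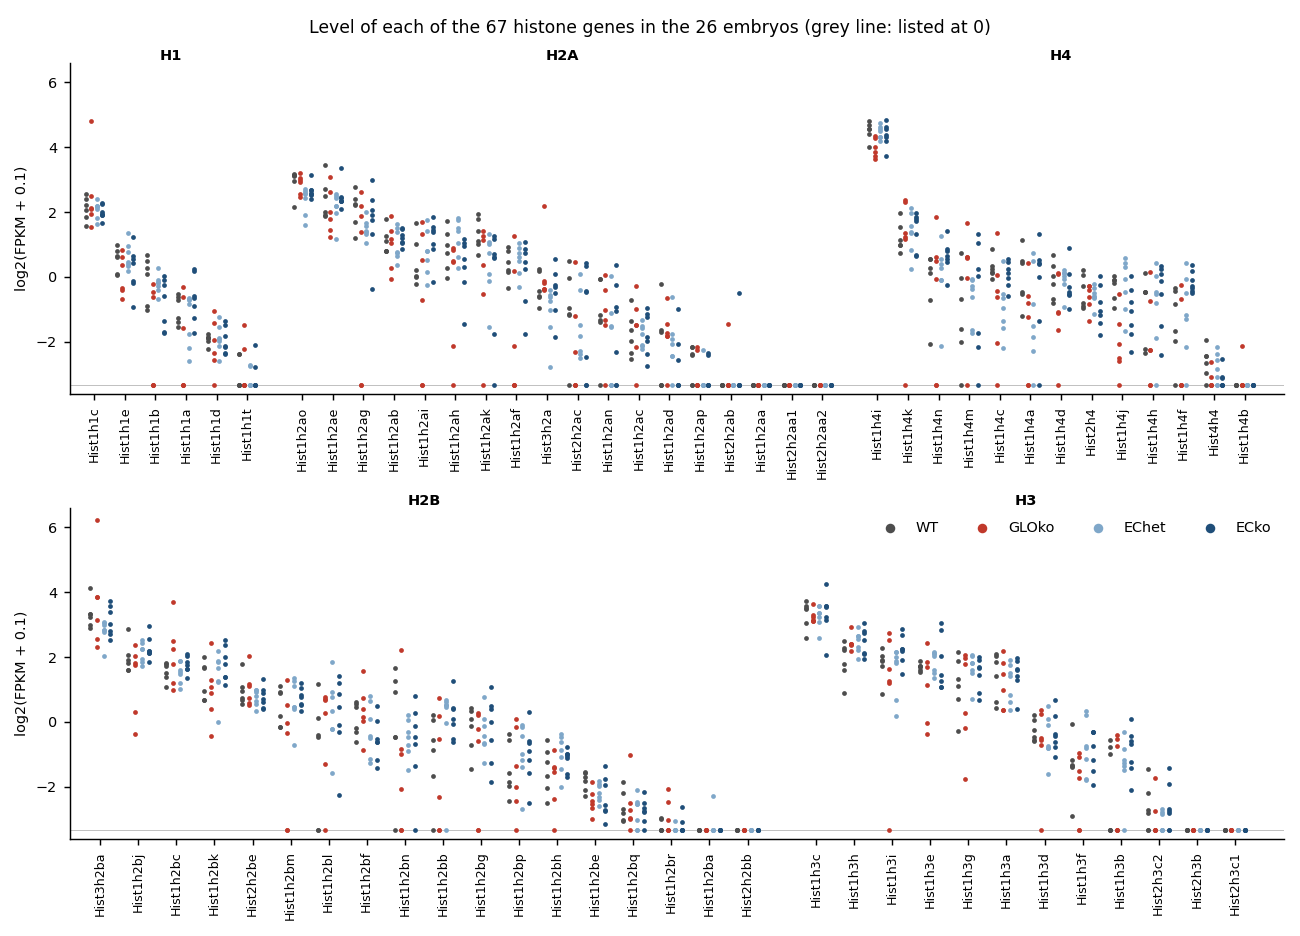
Level of the 67 members in each of the 26 embryos, as log2(FPKM + 0.1), coloured by group and ordered within histone type. The grey line marks genes listed at 0. By group mean, Hist1h4i (H4), Hist3h2ba (H2B) and Hist1h3c (H3) lead their types in all 4 groups. The highest points of Hist1h1c and Hist3h2ba are those of GLOko 2 alone (27.8 and 75.2 FPKM).

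No fragment was found in any of the 26 embryos for 6 members. These were Hist1h2aa, an H2A gene known from testis, and the Hist2 members Hist2h2aa1, Hist2h2aa2, Hist2h2bb, Hist2h3b and Hist2h3c1. The 5 Hist2 genes shared 100% of their windows with another annotated gene, whereas Hist1h2aa shared 10.3%. A count of 0 allows up to 3 fragments, which corresponds to an upper limit of 0.00307 to 0.0147 FPKM for these genes over all libraries. Of the other members known from testis, Hist1h2ba had 1 fragment and Hist1h1t had 16 fragments in all embryos together. At the other end, 20 members had at least 1 fragment in every embryo.

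By cluster, the Hist1 genes contributed 79.8% to 91.3% of the summed level in the 4 groups, the Hist3 genes 6.45% to 17.7% and the Hist2 genes 2.18% to 2.61%. The lone Hist4h4 contributed 0.0108% to 0.0549%. The share of the Hist3 genes was highest in GLOko embryos. Their sum was 5.53 to 79.6 FPKM there (median 12.3), with GLOko 2 (described further on) the highest. In WT embryos it was 7.71 to 18.6 (median 10.2). Neighbouring H2A and H2B genes of a pair that is read in opposite directions from a common stretch of 176 to 306 bases did not always have similar levels. Of 12 such pairs, 9 had both genes at 0.1 FPKM or more, and in 4 of these 9 the partners were more than 3-fold apart, up to 15.003-fold for Hist1h2ac (0.232 FPKM) and Hist1h2bc (3.48 FPKM). Hist1h2ag and Hist1h2bj, by contrast, were at 3.43 and 4.11 FPKM. These ratios also depend on the annotated gene lengths.

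The summed level of all members had similar means in the 4 groups and varied most among GLOko embryos. It was 107 to 150 FPKM in WT embryos (124 ± 14.1, SD, n = 6) and 86.0 to 216 in GLOko embryos (123 ± 48.2, n = 6). In EChet embryos it was 100.01 to 132 (116 ± 9.94, n = 7) and in ECko embryos 94.7 to 170 (127 ± 24.6, n = 7). The GLOko range thus enclosed the WT range, with GLOko 2 above every other embryo and GLOko 1, GLOko 3 and GLOko 6 below every WT embryo. By type, the H4 sum was 26.5 to 36.4 FPKM in WT embryos and 13.9 to 30.2 in GLOko embryos, whereas the H3 sums were 18.2 to 31.8 and 19.7 to 35.3. In these whole embryos, fewer cells of a type and less RNA per cell cannot be told apart.

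Fewer members were detected in 3 GLOko embryos. WT embryos had 52 to 55 members with at least 1 fragment, EChet embryos 51 to 56 and ECko embryos 49 to 56. GLOko 1 had 29, GLOko 6 had 35, GLOko 2 had 44, and the other GLOko embryos had 53, 57 and 57. After thinning to equal depth, GLOko 1 had 28.9, GLOko 6 had 35.0 and GLOko 2 had 43.8.

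**Figure D2:**
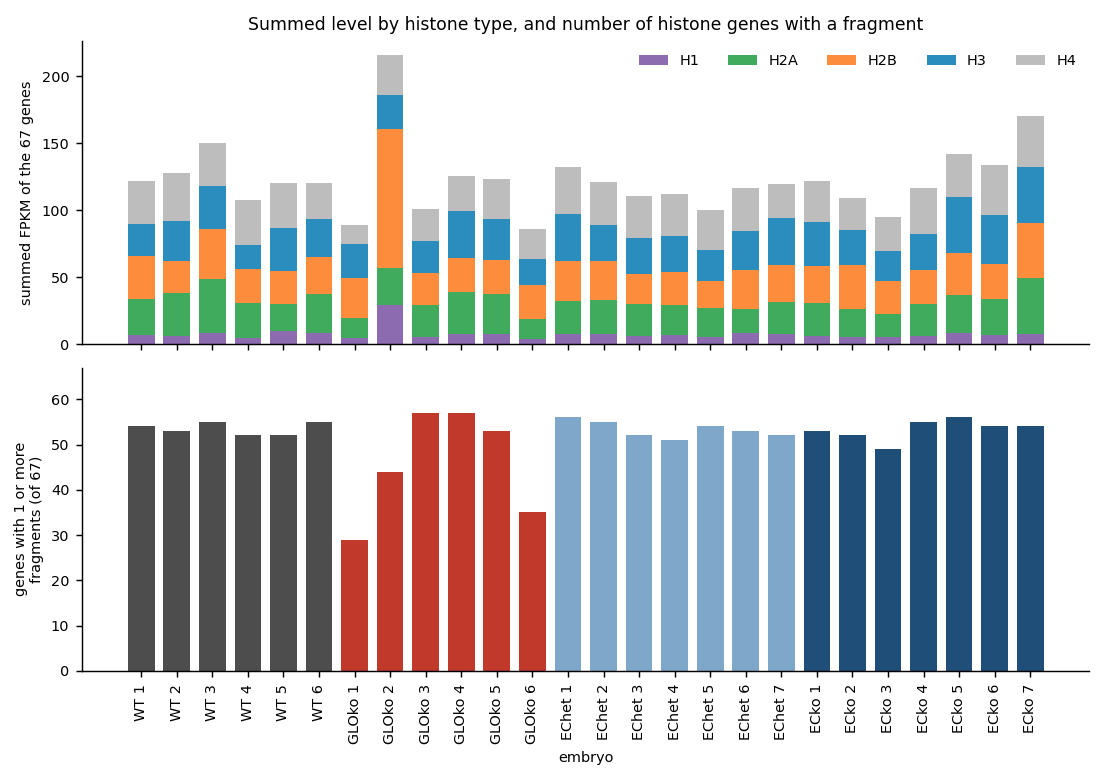
Upper panel, summed FPKM of the members in each of the 26 embryos, stacked by histone type; lower panel, number of the 67 members with at least 1 fragment. GLOko 2 has the tallest bar (216 FPKM), and GLOko 1, GLOko 6 and GLOko 2 have the fewest members detected (29, 35 and 44).

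The missing members were not only those near the detection limit. Of the 52 members with a mean of at least 0.1 FPKM, 24 were at 0 in GLOko 1, 19 in GLOko 6 and 9 in GLOko 2, against at most 3 in any other embryo of that table. GLOko 1 and GLOko 6 shared 14 of them, which were 58.3% of those of GLOko 1 and 73.7% of those of GLOko 6, and 9 of the 14 were above 0 in all 6 WT embryos. Hist1h2ag, an H2A gene at 4.41 FPKM in WT embryos on average, was the highest of those missing. In GLOko 1 the H4 genes were the most affected in number, with 9 of 11 at 0, whereas GLOko 6 lacked 3 of 11 H4 genes and 7 of 13 H2A genes. A count of 0 in GLOko 1 corresponded to an upper limit of 0.0219 to 0.520 FPKM, depending on gene length.

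These embryos also had fewer detected genes in general, and this moves with the result. GLOko 1 had 16020 genes above 0.1 FPKM and GLOko 6 had 16165, against 16880 to 17156 in WT embryos, whereas GLOko 2 had 17019. Among protein-coding genes with a WT mean of 5 to 50 fragments, 20 of 36 members (55.6%) were at 0 in GLOko 1, against 26.9% of 2589 other genes. In GLOko 6 the shares were 44.4% and 23%, and in GLOko 2 they were 19.4% and 9.93%. In WT embryos, 0% to 5.56% of the members and 1.24% to 3.59% of the other genes of that range were at 0. In GLOko 1, the cardiomyocyte markers also summed to 17.2 FPKM (WT, 49.97 to 717), with Myh6, Nkx2-5, Nppa and Tnnt2 at 0. Its yolk sac and liver markers summed to 1.16 (WT, 5.69 to 30.8), with Alb, Amn, Apoa1, Apoa4 and Ttr at 0. The cardiomyocyte markers summed to 1260 FPKM in GLOko 6 and to 1091 in GLOko 2. The part of tissue content, RNA quality and library preparation in the missing members was not tested.

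The effect of the global deletion was then tested for each member against WT. Of 52 members tested, 1 was called at an adjusted p of 0.05, the H4 gene Hist1h4j, which was lower in GLOko embryos. Over all 17573 genes tested, 10.4% were called (5.42% higher and 5.01% lower), and the single call among the members was 1.92% of them. An unadjusted p under 0.05 was reached by 6 members, or 11.5%, against 28.3% of all genes. The remaining 15 members were too low to be tested.

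Hist1h4j (chr13:21735064-21735837, plus strand) was at 0.409 to 0.922 FPKM in WT embryos (median 0.808) and at 0 to 0.595 in GLOko embryos (median 0.106). In fragments this was 7 to 17 per WT embryo and 0 to 9 per GLOko embryo, so that 5 of 6 GLOko embryos lay below every WT embryo and GLOko 6 lay within the WT range. The mean in GLOko embryos was 26.3% of that in WT embryos, and the fitted log2 fold change was -1.74 (SE 0.41, adjusted p = 0.0219). The exact permutation test over the 12 embryos gave p = 0.00649 before adjustment, where 0.00216 is the smallest value it allows. The call was lost without WT 2 or without WT 5 (adjusted p = 0.0544 in both), and was kept without GLOko 1 and GLOko 6 (adjusted p = 0.0144) and without these and GLOko 2 (adjusted p = 0.0104).

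Hist1h4i (chr13:22040636-22041362, minus strand), the most abundant member, was at 15.8 to 27.9 FPKM in WT embryos (median 23.7) and at 12.2 to 20.1 in GLOko embryos (median 15.2). Of the GLOko embryos, 3 of 6 lay below every WT embryo and none lay above. The log2 fold change was -0.50 (SE 0.16, adjusted p = 0.0564, exact permutation p = 0.0195), which missed the threshold. It passed under several other settings, among them the values as deposited (adjusted p = 0.0463) and array weights (adjusted p = 0.0325), and without GLOko 2 (0.0231), GLOko 5 (0.0433) or WT 6 (0.0322). In most other settings it did not pass, for example in limma-voom (0.0620) or without WT 2 (0.124). Without GLOko 1 and GLOko 6 the log2 fold change was -0.35 (adjusted p = 0.162), and without these and GLOko 2 it was -0.44 (0.0999).

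Next in order of p among the lower members came Hist1h2af and Hist1h1b. Hist1h2af, an H2A gene, was at 0.683 to 1.78 FPKM in WT embryos (median 1.16) and at 0 to 2.29 in GLOko embryos (median 0.0649), with 3 embryos at 0 and 1 above every WT embryo. Hist1h1b, which encodes the linker histone H1.5, was at 0.394 to 1.51 in WT embryos (median 1.05) and at 0 to 0.751 in GLOko embryos (median 0.275), and its 3 embryos at 0 were GLOko 1, GLOko 2 and GLOko 6. The groups overlapped for both genes. Their log2 fold changes were -2.12 (SE 0.74, adjusted p = 0.0819) and -1.81 (SE 0.64, adjusted p = 0.0824). The H4 gene Hist1h4a was at 0.331 to 2.12 and at 0 to 1.25 (log2 fold change -1.44, adjusted p = 0.160).

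Only 1 member with a positive fold change had an unadjusted p under 0.05. Hist1h3h, an H3 gene, was at 1.76 to 5.49 FPKM in WT embryos (median 3.94) and at 4.41 to 7.54 in GLOko embryos (median 5.16). All GLOko embryos thus lay above the WT median, with GLOko 1 the highest. The log2 fold change was 0.59 (SE 0.23, adjusted p = 0.119, exact permutation p = 0.0346). Since 92.0% of its windows occur in other genes, chiefly Hist1h3b, the value may hold reads of other H3 copies.

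**Figure D3:**
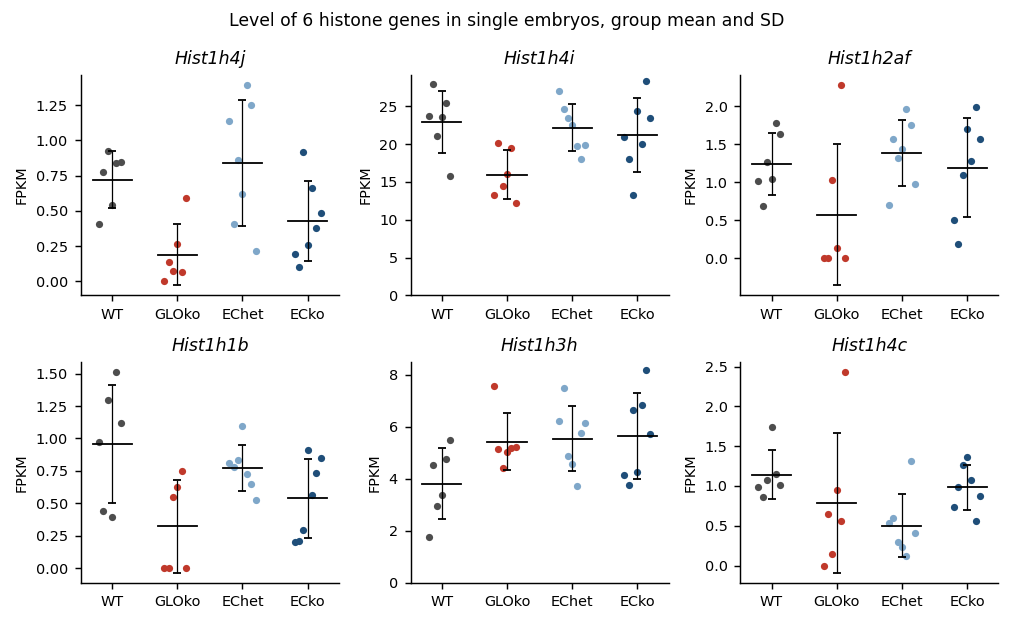
FPKM of 6 members in each embryo of the 4 groups; points are embryos, bars are means and error bars are SD (n = 6, 6, 7 and 7). Hist1h4j is called in GLOko against WT, with 5 of 6 GLOko embryos below every WT embryo, and the groups overlap for the other 5 genes.

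Across the tested members, 40 log2 fold changes were negative and 12 positive, with a median of -0.41 against 0.01 over all genes. The medians by type were -0.44 for H1 (5 genes), -0.36 for H2A (13), -0.31 for H2B (14), -0.44 for H3 (9) and -0.93 for H4 (11, of which 10 were negative). Without GLOko 1 and GLOko 6 the median over all members was -0.07, and without GLOko 2 as well it was 0.02, with 28 positive and 24 negative. These embryos were left out because many members were missing in them, so these values are a description. The standard errors of the members were wide, from 0.16 to 1.01 on the log2 scale (median 0.55).

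**Figure D4:**
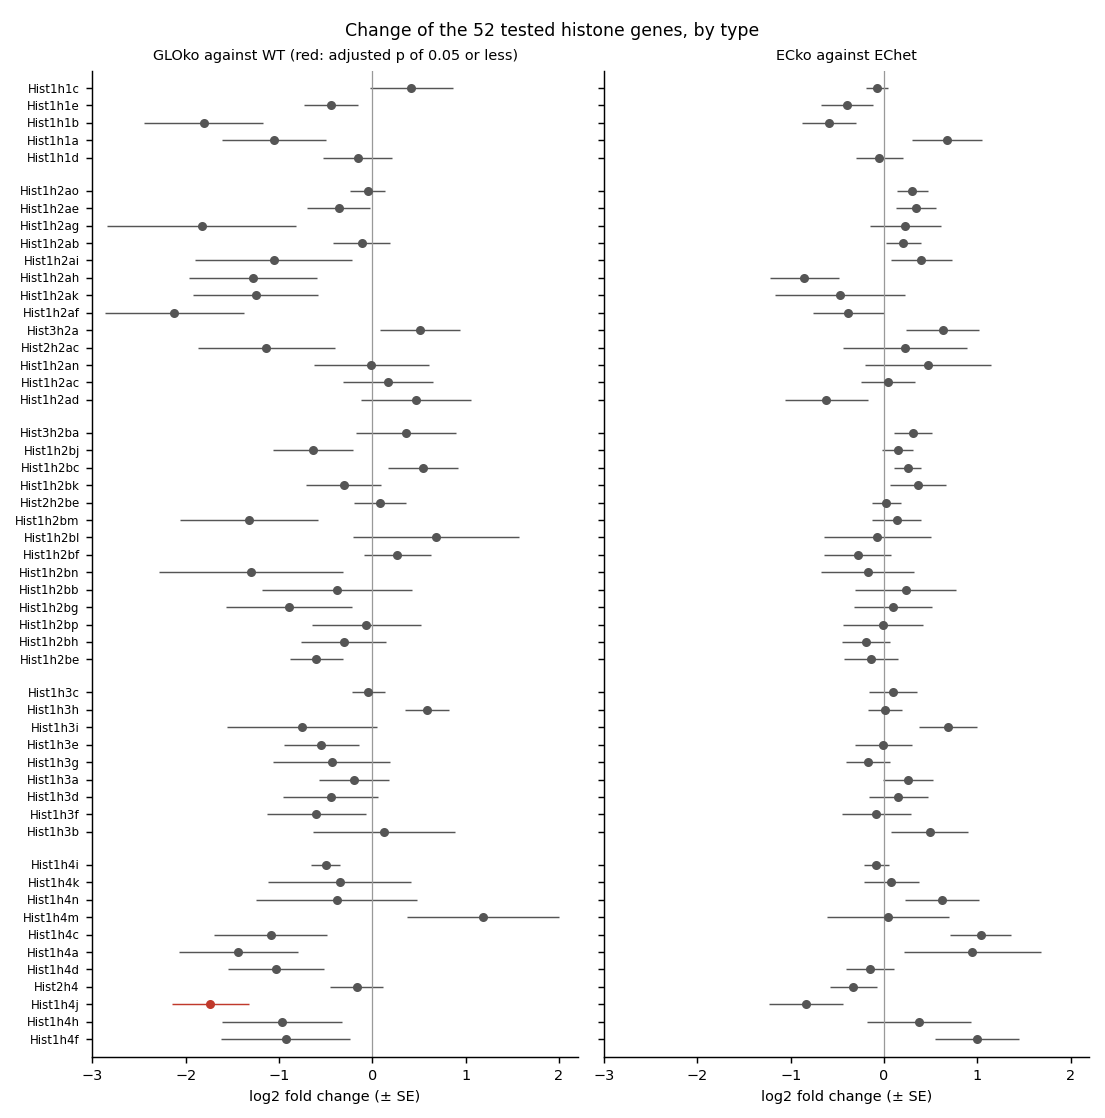
Log2 fold change with its SE for the 52 tested members in GLOko against WT and in ECko against EChet, grouped by type; red marks the call. Hist1h4j is the single red point, most GLOko values lie below 0 (40 of 52), and the ECko values lie on both sides of 0 (31 positive, 21 negative).

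A single GLOko embryo, GLOko 2, stood far above the others in a few members. Over the 52 tested members its median log2 difference from WT was -0.005, and 27 of them lay below the WT mean. GLOko 2 had the highest value of the 12 embryos in 12 of 60 members, against 1 to 7 in each other embryo. In 4 of these 12 members it was over 2-fold above the next embryo. The share of all genes in which GLOko 2 was highest is not given here, so the count is not shown to be particular to the members. Hist1h1c was at 27.8 FPKM in GLOko 2 (821 fragments) and at 2.82 to 5.80 in the other 11 embryos. Hist3h2ba was at 75.2 (874 fragments) and at 4.87 to 17.6, and its neighbour Hist3h2a at 4.43 and at 0.410 to 1.08. Hist1h2bc was at 12.7 and at 1.87 to 5.57, whereas Hist2h2be, the third gene known for polyadenylated mRNA, was at 3.99 and at 1.34 to 3.33. The other 5 GLOko embryos lay at 2.82 to 5.56 for Hist1h1c, close to the 2.85 to 5.80 of WT embryos. Of the annotated exons of Hist3h2a, 33.0% overlap other genes on the same strand, among them Trim17, so its reads may include theirs.

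With GLOko 2 in the group, the fitted fold changes of these genes were positive but far from the threshold. They were 0.42 for Hist1h1c (adjusted p = 0.572), 0.36 for Hist3h2ba (0.701), 0.51 for Hist3h2a (0.462), 0.54 for Hist1h2bc (0.370) and 0.08 for Hist2h2be (0.878). Without GLOko 2 the fold changes of Hist1h1c and Hist3h2ba were -0.052 and -0.17, so that this embryo carried their higher group means.

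**Figure D5:**
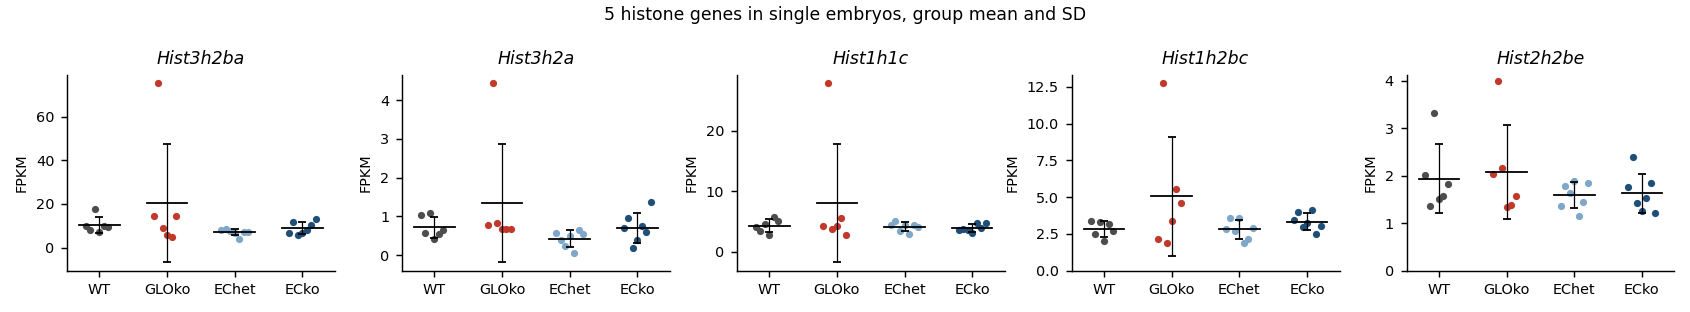
FPKM of Hist3h2ba, Hist3h2a, Hist1h1c, Hist1h2bc and Hist2h2be in each embryo; points are embryos, bars are means and error bars are SD. In each panel the highest point of the 4 groups is GLOko 2 (75.2, 4.43, 27.8, 12.7 and 3.99 FPKM).

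The promoters of the 2 members that stood highest in GLOko 2 are shown, as the 250 bases before the RefSeq start site (GRCm38.p6). Capitals mark matches to CCAAT and to the H1 box AAACACA on either strand, and to TATAAA on the plus strand. Hist3h2ba (chr11:58948661-58948910, plus strand) held 4 CCAAT matches and 1 TATAAA. Hist1h1c (chr13:23738557-23738806, plus strand) held 1 H1 box and 1 CCAAT.
Hist3h2ba: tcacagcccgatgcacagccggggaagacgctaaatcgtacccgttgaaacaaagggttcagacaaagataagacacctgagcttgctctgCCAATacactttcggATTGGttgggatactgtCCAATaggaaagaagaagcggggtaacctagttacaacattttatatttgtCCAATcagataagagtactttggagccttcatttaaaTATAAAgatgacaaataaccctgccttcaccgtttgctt
Hist1h1c: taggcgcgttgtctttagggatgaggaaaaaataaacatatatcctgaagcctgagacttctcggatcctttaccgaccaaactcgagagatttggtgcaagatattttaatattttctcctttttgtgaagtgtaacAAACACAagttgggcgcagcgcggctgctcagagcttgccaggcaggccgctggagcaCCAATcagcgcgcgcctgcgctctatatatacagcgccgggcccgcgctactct

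These motifs were not particular to the pair. In windows that run to 50 bases past the start, CCAAT was found in 53 of 62 members with a RefSeq promoter (85.5%, against 37.4% of 32851 promoters), among them all H1, H2A, H2B and H3 genes and 3 of 12 H4 genes. TATAAA was found in 48.4% of members (8.32% of all promoters). The H1 box was found in 5 of 6 H1 genes (7.18% of all promoters) and the octamer ATTTGCAT, known from H2B promoters and searched on both strands, in 6 of 16 H2B and 7 of 18 H2A genes (1.74%). None of the motifs contains another, and a match is a description of the sequence only.

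Genes of the cell cycle and of other cell types also moved in GLOko 2. It had the lowest value of the 12 embryos in 20 of 22 S phase genes, with the replication clamp Pcna at 62.2 FPKM against 171 to 231 in the others, and in 10 of 11 histone chaperones. Of 10 mitosis genes it was lowest in 5 and highest in 1, Top2a (137, others 70.9 to 118). The share of all genes in which it was lowest is not given here. The variant H2afz was at 135 (others, 302 to 517) and Slbp at 12.0 (others, 19.0 to 26.1). In contrast, the replication-independent H3f3b was at 506 (others, 218 to 300) and the linker variant H1f0 at 457 (others, 130 to 236). The endothelial markers summed to 151 FPKM in GLOko 2 (WT, 67.5 to 82.8), with 9 of 10 at their highest. The cardiomyocyte markers summed to 1091, which was within the 735 to 1325 of GLOko 3, GLOko 4, GLOko 5 and GLOko 6. Of these markers 4 of 10 were at their highest in GLOko 2, among them Myh7 (81.1, others 0.152 to 46.2) and Nppa (50.5, others 0 to 17.8). Their mean log2 difference from WT was 2.07 in GLOko 2 and 1.11 to 1.94 in GLOko 3, GLOko 4, GLOko 5 and GLOko 6. The part of cell composition in the high values of Hist1h1c and the Hist3 genes was not tested.

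In the endothelial deletion, no member was called. The count was 0 of 52, in limma and in limma-voom on the recovered fragments, and 4 members (7.69%) had an unadjusted p under 0.05, against 14.5% of all genes. Over all 17514 genes, 0.0971% were called (0.0571% higher and 0.04% lower). The log2 fold changes had a median of 0.09 against 0.00 over all genes, and the standard errors were smaller than in the global deletion (0.12 to 0.74, median 0.31). Traf7 itself was not called in this comparison (log2 fold change -0.24, adjusted p = 0.203). A change confined to the cells in which Tie2-Cre acts may therefore be missed in whole embryos.

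Hist1h4c, an H4 gene, had the smallest p. It was at 0.120 to 1.31 FPKM in EChet embryos (median 0.409) and at 0.563 to 1.36 in ECko embryos (median 0.993). EChet 6 was the only EChet embryo above 0.599, and the groups overlapped. The log2 fold change was 1.04 (SE 0.33, adjusted p = 0.203, exact permutation p = 0.0146). The level in WT embryos, in the other table, was 0.864 to 1.74.

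A further 3 members had an unadjusted p under 0.05. Hist1h2ah, an H2A gene, was at 1.10 to 3.45 FPKM in EChet embryos (median 2.59) and at 0.269 to 2.17 in ECko embryos (median 1.36), with a log2 fold change of -0.85 (adjusted p = 0.314). Hist1h4f, an H4 gene, was at 0 to 1.24 and at 0.613 to 1.18 (log2 fold change 1.00, adjusted p = 0.326), and the H3 gene Hist1h3i at 1.04 to 4.35 and at 2.65 to 7.15 (0.68, adjusted p = 0.333). The groups overlapped in all of these genes. Hist1h4j was at 0.217 to 1.40 FPKM in EChet embryos (median 0.863) and at 0.1002 to 0.916 in ECko embryos (median 0.379), with a log2 fold change of -0.84 (SE 0.40, adjusted p = 0.346, exact permutation p = 0.0798). Hist1h4i differed by -0.08 (SE 0.14, adjusted p = 0.834), with 18.0 to 26.98 FPKM in EChet embryos and 13.3 to 28.4 in ECko embryos.

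Other members with small p were Hist1h1b (log2 fold change -0.59, adjusted p = 0.358), Hist1h2ao (0.30, 0.422) and Hist1h1a (0.68, 0.428). ECko 7 had the highest summed level of its table (170 FPKM) and the highest value in 13 of 60 members (0 to 8 in each other embryo). It was lowest in 14 of 22 S phase genes. The shares over all genes are not given here. ECko 3 had the lowest sum (94.7 FPKM) and the lowest cardiomyocyte marker sum of its table (52.9, against 553 to 692 in EChet embryos). ECko 4 had a marker sum of 77.4 with a histone sum of 117 FPKM. Their part in these values was not tested.

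Whether the 2 deletions differed in their effect was tested as a difference of fold changes over the 26 embryos. None of 52 members was called by limma or by limma-voom, against 2.07% of 17560 genes, and 5 had an unadjusted p under 0.05 (21% of all genes). The largest of these differences were in Hist1h4a (-2.38, adjusted p = 0.183) and Hist1h4c (-2.13, SE 0.69, adjusted p = 0.0862), both more negative in the global deletion. A difference between the deletions in Hist1h4j was therefore not shown.

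The genes that make and process histone mRNA were examined alongside. Of 15 tested, 3 were higher and 1 was lower in GLOko embryos, and the counts of this and the following lists stand against 5.42% of all genes higher and 5.01% lower. Zfp473, whose human counterpart works with the U7 particle, was at 0.482 to 0.717 FPKM in WT embryos (mean 0.580) and at 0.820 to 1.48 in GLOko embryos (mean 1.27; log2 fold change 1.02, SE 0.19, adjusted p = 0.0103). Npat, the coactivator of histone gene transcription in S phase, was at 5.44 to 6.86 and at 7.15 to 9.41 (log2 fold change 0.43, SE 0.09, adjusted p = 0.0135). The groups did not overlap for either gene, and both calls were kept whichever single embryo was left out. Npat was also called in the difference of effects (0.51, adjusted p = 0.0245), a call lost without WT 2.

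Hinfp, which binds H4 promoters, was higher in GLOko embryos (log2 fold change 0.50, adjusted p = 0.0486), and Srrt, known as ARS2 and involved in 3' end formation at the cap-binding complex, was lower (-0.76, adjusted p = 0.0417). Both calls were lost without GLOko 1, without GLOko 3, without GLOko 6 or without any single WT embryo. Slbp, the stem-loop binding protein, had a mean of 24.6 FPKM in WT embryos and 19.99 in GLOko embryos.

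Among the 11 replication-independent variants, 3 were lower in GLOko embryos and none was higher. H2afz, which encodes H2A.Z, was at 447 to 517 FPKM in WT embryos and at 135 to 371 in GLOko embryos (log2 fold change -0.71, adjusted p = 0.0384), so that the groups did not overlap. H2afy2, which encodes macroH2A2, was at 117 to 136 and at 74.99 to 110 (-0.45, adjusted p = 0.0113), and H2afj differed by -0.65 (adjusted p = 0.0398). The call of H2afy2 was kept whichever single embryo was left out, whereas that of H2afz was lost without GLOko 1, without GLOko 3 or without any single WT embryo. The median over the list was -0.33.

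Of 22 S phase genes, 3 were lower and none was higher, with a median log2 fold change of -0.29. They were the transcription factor E2f1 (-0.45, adjusted p = 0.0204), the replication helicase subunit Mcm5 (-0.43, adjusted p = 0.0465) and the GINS subunit Gins2 (-0.41, adjusted p = 0.0372). All 3 calls were lost without WT 4. The mean log2 difference of the S phase genes from WT was -0.992 in GLOko 2. In the other GLOko embryos it was -0.184 to -0.118. Among 11 histone chaperones, Hjurp was higher (0.42, adjusted p = 0.0102), and Daxx (-0.41, adjusted p = 0.0186) and Asf1a (-0.39, adjusted p = 0.0421) were lower. The mean log2 difference of the chaperones from WT was -1.03 in GLOko 2 and -0.197 to -0.062 in the other GLOko embryos. Of 10 mitosis genes, Cenpf (0.57), Mki67 (0.44) and Top2a (0.45) were higher and Cdc20 (-0.40) and Plk1 (-0.48) were lower.

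Of these and the endothelial calls, 9 of 20 were kept whichever single embryo was left out and 11 were lost without at least 1 embryo. The number kept was 10 without GLOko 1 and GLOko 6 and 15 without GLOko 1, GLOko 2 and GLOko 6. The endothelial markers Flt1 (1.24, adjusted p = 0.0194) and Kdr (0.76, adjusted p = 0.0210) were the only ones of 10 called. None of 11 erythroid, 10 cardiomyocyte and 10 yolk sac and liver markers was called. The yolk sac and liver markers nevertheless summed to 541 FPKM in GLOko 5 (WT, 5.69 to 30.8). Their mean log2 difference from WT was 4.44 in GLOko 5 and 2.75 in GLOko 4. It was -2.09 to -0.180 in the other GLOko embryos and -0.958 to 0.678 in WT embryos. The part of this tissue content in the results was not tested. In ECko embryos no gene of any of these lists was called.

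Small RNAs that carry no poly(A) tail were nearly absent from the tables. Of 15 such genes only Rn7sk and Terc passed the filter in the table of the global deletion, at 1.65 to 9.41 FPKM for Rn7sk. Terc differed by -1.92 on the log2 scale (adjusted p = 0.0595) and Rn7sk by 0.11. The sources used here do not say whether poly(A) RNA had been selected, and the part of such a step in the levels of the histone mRNAs was not tested.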

How the data were processed

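Embryos were grouped by their genotype labels, and each comparison was made within its own table. The authors deposited FPKM, with gene lengths in bases. The labels name STAR and mm10, and the key resources of the study also list HISAT2 and featureCounts without a role. Library type, strand and handling of multi-mapped reads are not given in the sources used here. FPKM times gene length were whole multiples of 1 fragment (tolerance 0.01) in every library, which gave fragment counts.

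FPKM, scaled by median-of-ratios factors, were tested as log2(FPKM + 0.1), a scale that understates changes of low genes, with limma 3.58.1 (R 4.3.3, trend and robust moderation). Genes with a mean of at least 0.1 FPKM entered, adjustment over all of them followed Benjamini and Hochberg, and calls had an adjusted p of 0.05 or less. The p-values measure the spread between embryos, whose litters are not given. Exact permutation tests were two-sided. Fits were tested on simulated data. Alternatives changed the constant, the filter, the scaling, weights, covariates or libraries. Leaving out GLOko 1 and GLOko 6 together, and levels without GLOko 2, were chosen after seeing the data. The fit without GLOko 1, GLOko 2 and GLOko 6 was listed beforehand, but its choice of embryos also rested on members missing in these data.

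Named members were those called, the 5 of smallest p in each direction, the 3 highest of each type, and genes known for polyadenylation or from testis; from the other lists, called genes and those of smallest p. Members and lists were chosen with earlier results of these data known. Summaries were made in Python 3.11.15.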

Additional observations from a re-analysis of the deposited data

Results flagged for a closer look

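A value was listed here when the highest or lowest embryo of a group stood apart from the rest of its group by Dixon's test at the 95% level. The test was run on 133 groups of values and marked 24, and chance marks about 1 in 20 groups. GLOko 2 held 8 of the 24.

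In GLOko 2 these were Hist1h1c (27.8 FPKM, other GLOko embryos 2.82 to 5.56), Hist1h2bc (12.7, others 1.87 to 5.57), Hist2h2be (3.99, others 1.34 to 2.16), Hist3h2a (4.43, others 0.661 to 0.817) and Hist3h2ba (75.2, others 4.87 to 14.4). With them went the summed FPKM of the H1 genes (29.5), of the H2B genes (104) and of all members (216). Among the other GLOko embryos, GLOko 1 was highest for Hist1h3h (7.54, others 4.41 to 5.23) and GLOko 4 for Hist1h3c (12.2, others 8.55 to 9.65).

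In WT embryos the marked values were Hist3h2ba (17.6, others 7.30 to 9.95) and Hist2h2be (3.33, others 1.37 to 2.02) in WT 3, Hist1h2bj (7.23) and Hist1h4c (1.74) in WT 4, Hist1h2ad (0.762) in WT 2, and Hist1h2ao in WT 5, which was the lowest of its group (4.32, others 7.73 to 8.86).

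In EChet embryos they were Hist1h2ad in EChet 2 (0.547), Hist1h2ba in EChet 1 (0.104, a single fragment), Hist1h4c in EChet 6 (1.31) and Hist3h2ba in EChet 5, the lowest of its group (4.00, others 6.72 to 8.44). In ECko embryos ECko 7 was highest for Hist1h2ae (10.2, others 4.18 to 5.40) and Hist1h2ao (8.73, others 5.16 to 6.36), ECko 5 for Hist1h2ad (0.408) and ECko 4 for Hist1h1t (0.131).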

How the results depend on the processing

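No histone gene was called in ECko embryos under any alternative. In GLOko embryos 2 were called with FPKM as deposited, with array weights and with the replicate number as a block, against 1, and 0 to 4 over single embryos left out: 0 without WT 2 or WT 5, 2 without GLOko 2, GLOko 4 or WT 6, and 4 without GLOko 5. In the difference of effects 1 was called when detected genes entered as a covariate, and 0 to 2 over single embryos left out (2 without GLOko 4, 1 without GLOko 6). The cause was not tested. Same-numbered embryos did not vary together (correlations of -0.08 to 0.11), so the numbers were not taken as pairs, and the second call under the block was Hist1h4i. Over all genes, the calls were 1833, 17 and 364. With all embryos kept, they ranged from 1010 to 2799 in GLOko embryos, 0 to 31 in ECko embryos and 51 to 1006 in the difference of effects over the other settings, and with single embryos left out from 735 to 2498, 3 to 51 and 14 to 1208.

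The named members kept the direction of their fold change in every alternative in 40 of 55 genes in GLOko embryos (other lists and Traf7 included) and in 41 of 47 in ECko embryos. Fold changes in the GLOko comparison that changed sign were none of those with an adjusted p of 0.05 or less. Without GLOko 1, GLOko 2 and GLOko 6 they were Hist1h1a (0.18), Hist1h2ae (0.17), Hist1h2ag (0.15), Hist1h2bj (0.11), Hist1h3c (0.043), Hist1h3i (0.52), Hist1h4f (0.025), Hist1h4k (0.37), Hist1h4n (1.22), Hist2h2be (-0.19), Hist3h2ba (-0.64), Klf1 (0.13) and Rn7sk (-0.62). Without GLOko 1 and GLOko 6 they were Hist1h3i (0.26), Hist1h4k (0.57), Hist1h4n (0.97) and Rn7sk (-0.11). With array weights they were Hist1h2ae (0.080), Hist1h3c (0.026), Hist1h4k (0.17), Hist1h4n (0.57), Hist2h2be (-0.11), Hist3h2ba (-0.34), Klf1 (0.035) and Rn7sk (-0.29). With the number of detected genes they were Hist1h4k (0.20), Hist1h4n (0.38) and Rn7sk (-0.042), with 1 added Hist1h4k (0.026) and Hist1h4n (0.051), and with a fixed total Hist1h2ao (0.00096) and Hist1h3c (0.0078).

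In ECko embryos Hist1h3h changed sign with a fixed total (-0.021), limma-voom (-0.0071), array weights (-0.021) and the number of detected genes (-0.069). Hist1h4m did so with 0.01 added (-0.40), limma-voom (-0.092) and array weights (-0.21), Hist1h4i with the number of detected genes (0.058), Hist1h4k with array weights (-0.0055) and Hist2h2be with a fixed total (-0.0075).

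Over single embryos left out, the GLOko fold changes spanned -0.052 to 0.61 for Hist1h1c, -0.21 to 0.028 for Hist1h2ao, -0.19 to 0.039 for Hist1h3c, -1.10 to 0.11 for Hist1h3i, -0.65 to 0.48 for Hist1h4k, -0.88 to 0.16 for Hist1h4n, -0.13 to 0.25 for Hist2h2be, -0.17 to 0.63 for Hist3h2ba and -0.16 to 0.32 for Rn7sk. The ECko fold changes spanned -0.057 to 0.31 for Hist1h3c, -0.081 to 0.098 for Hist1h3h, -0.16 to 0.026 for Hist1h4i, -0.11 to 0.21 for Hist1h4k, -0.29 to 0.49 for Hist1h4m and -0.069 to 0.086 for Hist2h2be. No scaling moved the median of all genes in a comparison by more than 0.1.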
